A study of Mus musculus with 4 samples.

Results

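The Ifit genes encode interferon-induced proteins built from tetratricopeptide repeats, and in the mouse they lie side by side on chromosome 19. The cluster was taken as all loci of the deposited table that carry a UCSC transcript ID and overlap the mm9 interval from 34615000 to 34735000 on chromosome 19. The rule uses position and no expression value, but it was proposed with earlier results of these data known. It gave 6 loci of the 17576 in the table, or of the 15883 with a transcript ID, and no locus without one lay in the interval. The series holds 4 samples in 4 groups of 1 library each, naive or pretreated cells at 0 h or 1 h of stimulation. All are polyA RNA from C57BL/6 mouse embryonic fibroblasts (MEFs) of the genotype H3.3-HA knock-in, whose H3f3b locus carries a tagged H3.3 cDNA, so both groups compared here share that allele. The 2 groups compared are naive MEFs and pretreated MEFs after 1 h of interferon-beta (IFN-beta), a type I interferon, at 100 U/ml. The agent, dose and length of the pretreatment are not spelled out in the labels, and the 0 h libraries were not analysed here. A value at 1 h therefore does not separate RNA present before the stimulation from RNA made during it. The labels name the assay as RNA-seq in the series and as scTSS-seq in the samples, and the values were treated as RNA-seq.

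Type I interferon binds a receptor whose kinases activate a transcription factor complex that contains IRF9. This complex binds the interferon-stimulated response element (ISRE) in the promoters of its target genes. The Ifit genes are among the most strongly induced of these targets in fibroblasts. Ifit1 binds viral RNA whose cap lacks the methyl marks of the host's own messages and blocks its translation. Ifit2 and Ifit3 are RNA-binding or partner proteins of the same antiviral complexes. Ifit3b, Ifit1bl1 and Ifit1bl2 are later copies of these genes in rodents, with less known functions.

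The table names loci by serial number, so identities were taken from spans and spacings. Lipa, which encodes lysosomal acid lipase, spans 35159 bp just below the cluster in the table and in the GRCm38 annotation alike, and the spacing of 11 such genes in the surrounding region was the same in both. At this spacing the start of XLOC_013042 (uc008hgn.2, chromosome 19, 34625184 to 34651044 in mm9) fell on the start of Ifit2. The end of XLOC_013043 (uc008hgo.1, 34658019 to 34663472) fell on the end of Ifit3. The other 4 loci, XLOC_013044, XLOC_013045, XLOC_013458 and XLOC_013459, are given 1 common interval from 34667378 to 34736909. It holds Ifit3b and Ifit1 on the plus strand, Ifit1bl1 and Ifit1bl2 on the minus strand, and pseudogene entries. On 20 chromosomes the start positions rose with the serial number in 3 runs. Of 8338 named loci with an annotated strand, 8267 (99.1%) lay in the first run when the gene was on the plus strand or in the second when it was on the minus strand, and on chromosome 19 this held for 280 of 287. By this measure XLOC_013044 and XLOC_013045 are the plus-strand pair and XLOC_013458 and XLOC_013459 the minus-strand pair. If serial numbers also follow position inside the shared interval, XLOC_013044 would be Ifit3b, XLOC_013045 Ifit1, XLOC_013458 Ifit1bl1 and XLOC_013459 Ifit1bl2. Among their transcript IDs, uc008hgp.2 is at XLOC_013458, uc008hgq.1 and uc008hgr.1 at XLOC_013044, uc008hgs.1 at XLOC_013459 and uc008hgt.1 at XLOC_013045. With those names, the last letters run in the order of the start sites of Ifit1bl1, Ifit3b, Ifit1bl2 and Ifit1. Whether such letters follow position was not tested, so the 4 loci are called by number.

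The promoters are shown because the cluster's loci were all higher in one library, and because they show how alike these genes are in their upstream sequence. RefSeq promoters (GRCm38.p6, from 250 bases before to 50 after the start site) were found for all 6 Ifit genes, with 9 start sites. They were searched for the core of the ISRE, TTTC followed by any 2 bases and TTTC again, which on the other strand reads GAAA, any 2 bases and GAAA. Both strands were searched, and overlapping matches were counted apart. At least 1 match lay in 6 of the 9 windows, against 3.44% of the 32851 promoter windows in the table, and these 6 windows belong to 5 of the 6 genes. At least 2 matches lay in 4 of the 9 windows, against 0.225% of all promoter windows. Several of these windows repeat the same sequence, as described after the stretches, so neither count is one of independent sequences. The stretches below run 5′ to 3′ on the gene's own strand, with the matches in capitals. Their coordinates are of GRCm38, not of the mm9 build of the expression table.
Ifit3, chr19:34583358-34583431, plus strand: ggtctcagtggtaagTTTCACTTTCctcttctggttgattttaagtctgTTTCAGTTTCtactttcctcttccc
Ifit3b, chr19:34607754-34607827, plus strand: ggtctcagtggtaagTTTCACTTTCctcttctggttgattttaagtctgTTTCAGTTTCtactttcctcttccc
Ifit1, chr19:34640770-34640828, plus strand: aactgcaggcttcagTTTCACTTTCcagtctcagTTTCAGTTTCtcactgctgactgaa
Ifit1bl2, chr19:34640770-34640828, minus strand: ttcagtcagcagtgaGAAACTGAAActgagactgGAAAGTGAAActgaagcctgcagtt
Ifit1bl1, chr19:34602048-34602087, minus strand: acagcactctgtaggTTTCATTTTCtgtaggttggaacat
Ifit1bl1, second start site, chr19:34599428-34599465, minus strand: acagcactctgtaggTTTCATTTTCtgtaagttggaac

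The stretches of Ifit3 and Ifit3b were identical over all 74 bases. Those of Ifit1 and Ifit1bl2 are the same 59 bases read from opposite strands, since the 2 start sites face away from each other 146 bases apart. No match was found in either Ifit2 window or in the second Ifit1bl2 window, which says only that these letters are not in those windows. The neighbouring genes Ch25h, Lipa, Pank1 and Kif20b had 0 matches in the windows listed for them. A match describes the sequence and is not evidence that a factor was bound in these cells.

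**Figure D1:**
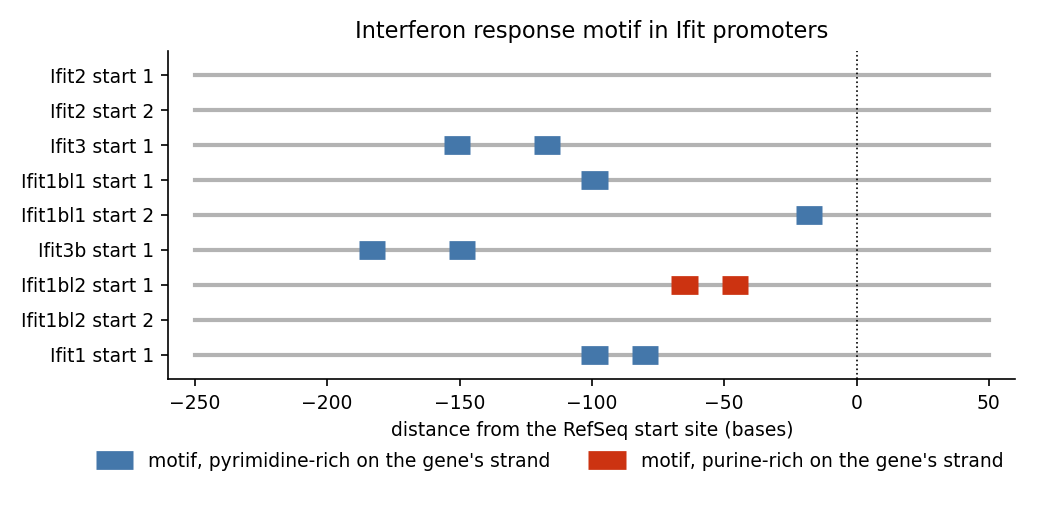
Position of the ISRE core in the RefSeq promoters of the 6 Ifit genes. The x axis is the distance from the start site in bases (0, dotted line), each grey line is 1 start site, and bars are matches, coloured by the form they have on the gene's strand. Ifit3, Ifit3b, Ifit1 and the first start site of Ifit1bl2 have 2 matches each, both start sites of Ifit1bl1 have 1, and Ifit2 has none.

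Values are FPKM (fragments per unit of transcript length and of mapped fragments). Setting levels side by side between genes rests on treating the values as RNA-seq, whereas the sample labels name scTSS-seq. Comparisons of level between genes below are uncertain to that extent. Each value below is that of 1 library, without a replicate error, and no test across samples could be made. Changes are differences of log2(FPKM + 1), pretreated minus naive, which understate the change of low loci. The understatement is large where a value lies well below 1 FPKM. Oas3, one of the induced effectors considered below, had 0.0459 (naive) and 2.99 FPKM (pretreated), given as a change of 1.93. The table gives no read counts. From loci with 1 to 4 reads, as inferred from the deposited p-values, pretreated depth was 0.492 of naive depth, at 14 locus spans compared. Of the fibroblast markers, 5 of 8 could be named: the intermediate filament gene Vim (917 FPKM in naive and 704 in pretreated cells), the collagen genes Col1a2 (521 and 293) and Col3a1 (111 and 69.1) and the receptor gene Pdgfrb (45.0 and 47.8) were all present, while Thy1 was near 0 (0.144 and 0.293). Markers of other cell types that could be named were low: Csf1r and Cd68 for macrophages, Pecam1 for endothelium and Cdh1 for epithelium had at most 1.33 FPKM in either library.

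All 6 loci of the cluster had a higher value in pretreated than in naive cells after 1 h of IFN-beta, against 37.2% of the 10228 loci compared, those whose mean over the 2 libraries reached 1 FPKM. At least 2-fold higher values were found at 4 of the 6, against 2.83% of all loci compared and 2.41% of those with a transcript ID, as the cluster's loci have. None of the 6 was at least 2-fold lower, against 7.12% of all and 4.24% of those with a transcript ID. The median change of the cluster was 2.13 on the log2 scale, with a range of 0.49 to 4.50, and that of all loci was -0.16. In the authors' deposited table, whose test compares the reads of these 2 libraries and not the conditions, 4 of the 6 carried a call as higher, against 3.91% of the 13388 loci tested, and none a call as lower, against 11.9%. The called loci were the same 4 that passed 2-fold.

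**Figure D2:**
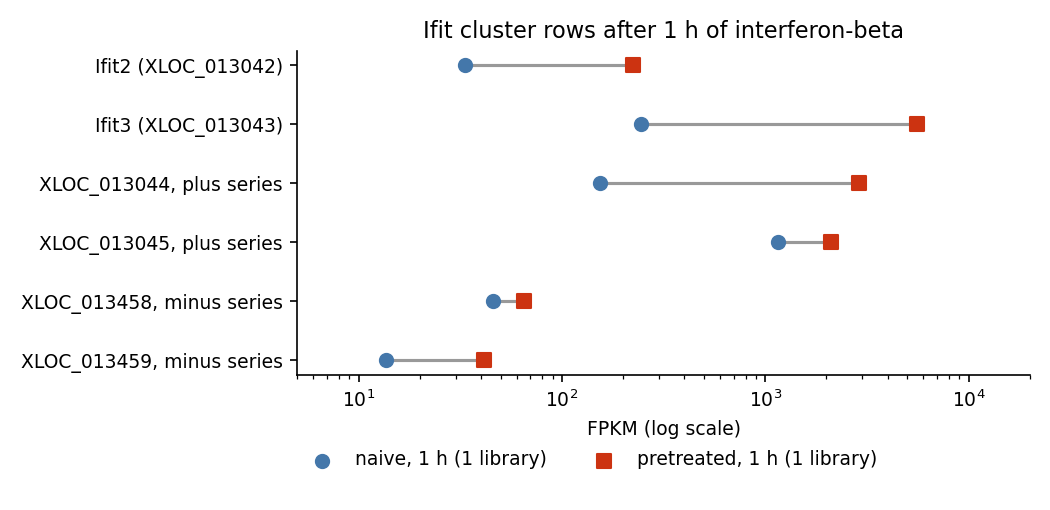
FPKM of the 6 Ifit cluster loci (log axis) in naive cells (circles) and pretreated cells (squares) after 1 h of IFN-beta, 1 library each, with a line joining the 2 values of a locus. Each square lies to the right of its circle, by 22.7-fold at Ifit3 and by 1.41-fold at XLOC_013458.

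Ifit3, a partner of other Ifit proteins in their RNA-binding complexes, had the largest change of the cluster. Naive cells had 246 FPKM and pretreated cells 5584 FPKM, a ratio of 22.7 and a log2 change of 4.50. Only 11 of the 10228 loci compared had a larger increase, and the authors' deposited table gives a q-value of 6.25e-10. After 1 h of IFN-beta Ifit3 was thus well above the typical locus in naive cells too, where the median of all loci compared was 5.94 FPKM. In pretreated cells its level ranked 42 of the 10228.

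XLOC_013044, the first of the plus-strand pair, changed almost as much. Its values were 153.7 FPKM (naive) and 2901 FPKM (pretreated), a ratio of 18.9 and a log2 change of 4.23, which ranked 17. The q-value in the authors' deposited table is 2.1e-11. Ifit3b, which lies in the interval that XLOC_013044 shares with 3 other loci, is a near copy of Ifit3: the GENCODE Ifit3 transcript of 1745 bases matched the Ifit3b transcript at 95.3% identity. Of the 50-base words of the Ifit3 transcript, 51.2% also occur in Ifit3b, and 44.5% of the Ifit3b words occur in Ifit3. Reads from such stretches fit both genes, and how the authors' processing treated them is not given in the sources used here. The value of Ifit3, and that of whichever locus is Ifit3b, is uncertain to that extent.

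Ifit2, which binds RNA and holds back translation, changed less than either. It went from 33.2 FPKM in the naive to 225 FPKM in the pretreated library, a ratio of 6.77 and a log2 change of 2.72, ranked 58. The q-value in the authors' deposited table is 5.62e-11. None of the 50-base words of the Ifit2 transcripts occurs in another Ifit gene. This covers only exact matches of that length, not shorter reads or reads aligned with mismatches.

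XLOC_013045, the second of the plus-strand pair, stood apart in the naive library. At 1156 FPKM it was the highest locus of the cluster there, at 4.69 times the level of Ifit3. In pretreated cells it was at 0.379 times that level. Its pretreated value was 2118 FPKM, a ratio over naive of 1.83 and a log2 change of 0.87, short of 2-fold, with a q-value of 0.411 in the authors' deposited table. Centring all changes on their median put it just past 2-fold, at 1.03. It was high in both libraries, and its change was larger than that of only 1 other locus of the cluster. Of the 50-base words of Ifit1, which lies in this interval, 7.13% occur in other Ifit genes.

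The minus-strand pair had the lowest levels in pretreated cells. XLOC_013459 was at 13.6 FPKM in the naive and 41.5 FPKM in the pretreated library, a ratio of 3.06 and a log2 change of 1.54, and the q-value in the authors' deposited table is 0.000584. XLOC_013458 was at 45.9 FPKM and 65.0 FPKM, a ratio of 1.41 and a log2 change of 0.49, with a q-value of 0.208 in the authors' deposited table. The words shared with other Ifit genes made up 6.45% of those of Ifit1bl1 and 9.34% of those of Ifit1bl2, the genes on this strand. Because all 4 loci of the shared interval have the same deposited coordinates, and no source used here says that counting used strand, reads of one could have been given to another.

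The order of the loci differed between the libraries. From high to low, the naive order was XLOC_013045, Ifit3, XLOC_013044, XLOC_013458, Ifit2 and XLOC_013459. In pretreated cells it was Ifit3, XLOC_013044, XLOC_013045, Ifit2, XLOC_013458 and XLOC_013459. Without replicates, neighbours in either order cannot be said to differ beyond their spread. The order, and the sums and shares that follow, also rest on treating the values as RNA-seq and on how reads were split within the shared interval. The highest locus exceeded the lowest 85.1-fold in naive cells and 134-fold in pretreated cells. The FPKM values of the cluster summed to 1648 in naive and 10935 in pretreated cells, a ratio of 6.63. XLOC_013045 made up 70.1% of the sum in naive cells and 19.4% in pretreated cells. Ifit3 and XLOC_013044, the loci with the largest changes, together made up 24.3% in naive and 77.6% in pretreated cells.

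**Figure D3:**
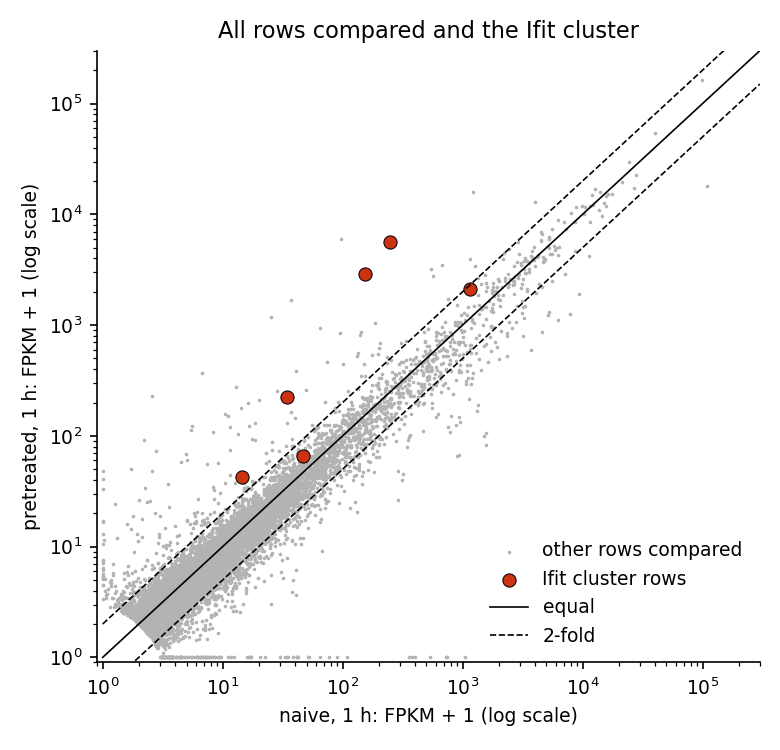
Pretreated against naive FPKM + 1 (both log axes) for the 10228 loci compared, with the 6 Ifit cluster loci as large red points, the line of equal values and dashed lines at 2-fold. The red points all lie above the line of equality, and 4 lie above the upper dashed line, where 2.83% of all loci lie.

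None of the loci flanking the cluster was at least 2-fold higher in pretreated cells, a mark that only 2.41% of all compared loci with a transcript ID reached. Below it, Lipa, 23.2 kb away, was at 39.5 FPKM (naive) and 41.8 FPKM (pretreated), a log2 change of 0.08. The next 2 loci, XLOC_013456 and XLOC_013041, share an interval 69.1 kb from the cluster. XLOC_013456 had 2.53 and 2.55 FPKM, and XLOC_013041, at 0.0756 and 0.0192 FPKM, was below the level compared. Above the cluster, Pank1, which encodes a pantothenate kinase, lay 148.5 kb away with 0.961 and 0.680 FPKM, and was also below that level. XLOC_013046, 260 kb away, was lower in pretreated cells, at 4.82 FPKM against 11.5 FPKM in naive cells, a log2 change of -1.10 with a q-value of 5.18e-09 in the authors' deposited table. The sixth flanking locus, A830019P07Rik, lay 1173 kb away and had at most 0.107 FPKM. Within 1000 kb of the cluster on either side, 6 other loci with a transcript ID were compared. None was at least 2-fold higher, against 2.41% of all compared loci with a transcript ID. At least 2-fold lower was 1, against 4.24%, and the changes ran from -1.10 to 0.08. Counts over so few loci do not set the neighbours apart from other loci.

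**Figure D4:**
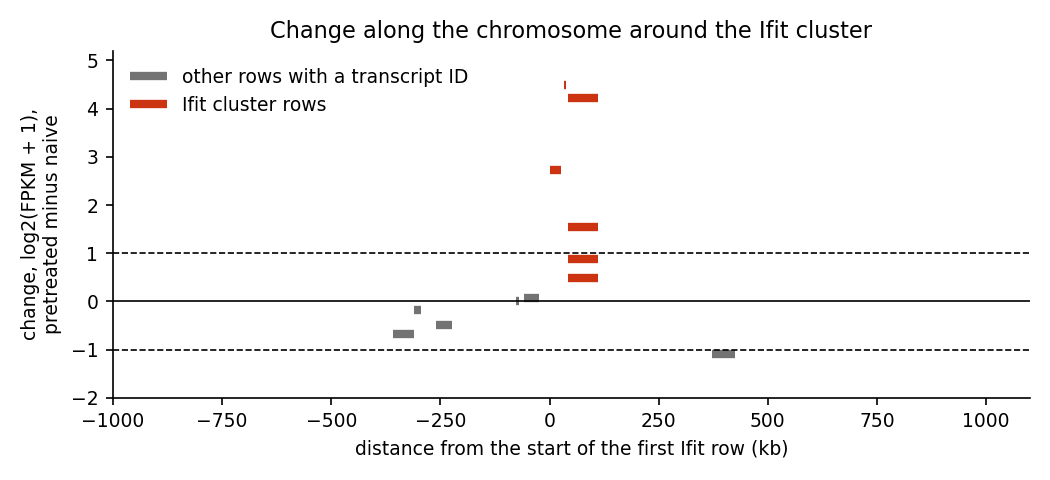
Change of each compared locus with a transcript ID (y axis, log2(FPKM + 1), pretreated minus naive) against its extent, as distance from the start of the first Ifit locus in kb. The 6 Ifit loci (red, 4 of them drawn over 1 common interval) lie between 0.49 and 4.50, and the 6 other loci (grey) between -1.10 and 0.08.

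The cluster was then set beside other genes of the interferon pathway. Of 39 genes listed, 25 could be named in the table and 24 reached the level compared. Among these, 16 were at least 2-fold higher in pretreated cells, against 2.83% of all loci compared, and 1 was at least 2-fold lower, against 7.12%. The other 7 changed by less than 2-fold, and the median log2 change was 1.65. The list was drawn up with earlier results of these data known. The receptor subunit gene Ifnar2 (5.13 FPKM in naive and 5.38 in pretreated cells) and the receptor kinase gene Tyk2 (1.72 and 1.94) were nearly level. Among the transcription factors, Irf7, which drives later interferon responses, was at 13.2 FPKM (naive) and 179 FPKM (pretreated), a log2 change of 3.66. Irf9, which recognises the ISRE, had 30.8 and 58.2 FPKM, a log2 change of 0.90. Irf1, an early target of interferon, went the other way, with 555 FPKM (naive) and 263 FPKM (pretreated), a log2 change of -1.08 and a q-value of 0.117 in the authors' deposited table. Usp18, which removes ISG15 from proteins and damps receptor signalling, had 184 and 1034 FPKM, a log2 change of 2.49.

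Of the 17 induced effectors compared, 14 were at least 2-fold higher, against 2.83% of all loci compared. None was 2-fold lower, against 7.12%. The 3 largest changes of the list were those of Oasl2, an oligoadenylate synthetase-like gene (4.59 FPKM in naive and 122 in pretreated cells, log2 change 4.46), of the ubiquitin-like modifier Isg15 (4.49 and 112, 4.36) and of the oligoadenylate synthetase Oas2 (1.60 and 47.3, 4.21). On the log2(FPKM + 1) scale their changes lie close to those of Ifit3 and XLOC_013044, while their levels in pretreated cells were lower than that of either. The order depends on that scale. As plain ratios of FPKM, the changes of Oasl2, Isg15, Oas2 and Oas3 (0.0459 and 2.99 FPKM) are all larger than that of Ifit3. Eif2ak2, the kinase PKR, had 127.6 and 153.6 FPKM, a log2 change of 0.27, and Ddx58, the RNA sensor RIG-I, had 49.7 and 70.0 FPKM, a log2 change of 0.48.

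**Figure D5:**
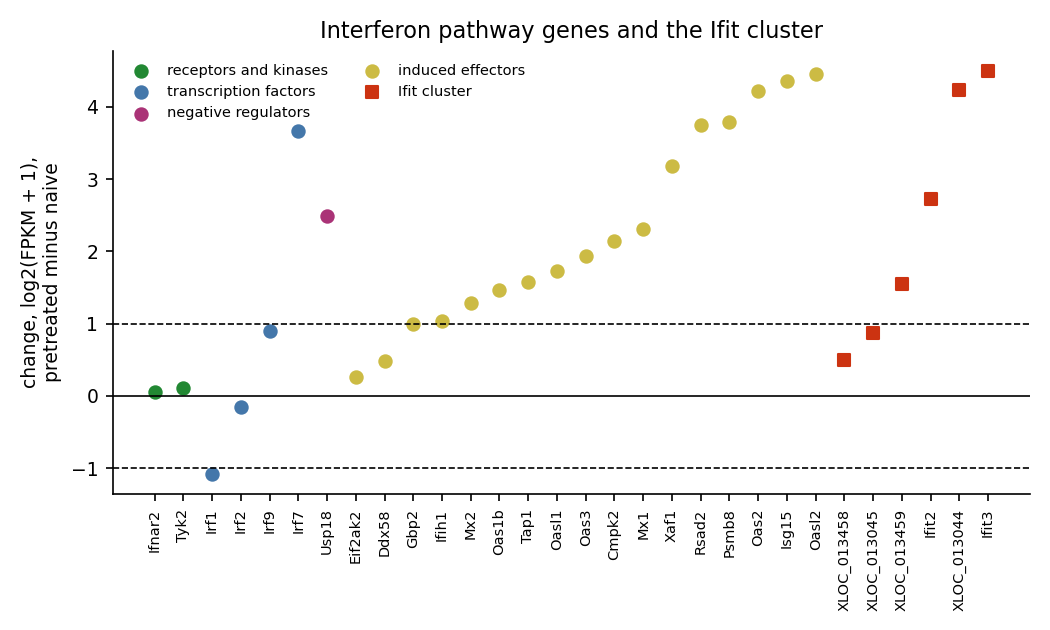
Change (y axis, log2(FPKM + 1), pretreated minus naive) of the 24 interferon pathway genes compared, coloured by role and sorted within each role, and of the 6 Ifit cluster loci (squares). Dashed lines mark 2-fold. The Ifit loci run from 0.49 to 4.50, and the highest pathway gene on this scale, Oasl2, is at 4.46. The scale understates the change of genes with low values.

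The locus most like Ifit3 over the 2 libraries, by distance on the log2(FPKM + 1) scale, was XLOC_010848 on chromosome 17 (35378691 to 35580718 in mm9), 1.36 away. Its values were 95.7 FPKM (naive) and 5941 FPKM (pretreated). The next was XLOC_029749 on the X chromosome (148380633 to 148380732), 1.38 away, with 539 and 3211 FPKM, which carries no transcript ID. Likeness over only 2 libraries is a loose measure, and both distances exceed 2-fold.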

How the data were processed

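The authors deposited 1 table comparing the naive and pretreated libraries at 1 h. Its values are FPKM per locus for each library, and its p-values and q-values are the authors' test of the reads of those libraries (calls at a q-value under 0.05). The submitters' processing notes name TopHat, Cufflinks 1.2.1 and mm9. The annotation, strand setting and scaling between libraries are not given in the sources used here. Each column was matched to its library by the sample name written beside it. Changes were computed with pandas 2.3.3 as log2(FPKM + 1) differences over loci whose mean reached 1 FPKM, and counted at 2-fold. The counting was run on simulated data whose changes lay far from 2-fold and whose values reached 1 FPKM. That run says nothing of low loci or of changes near the threshold. With 1 library per group, no test across samples was run. Symbols were given to 8321 loci: 3260 had the exact span of 1 GRCm38 gene (at least 2000 bp) and a neighbour at the same spacing, 5132 others had an end at that spacing, and 71 of these were dropped because their serial run went against the gene's strand. All 6 members are named, with the 3 nearest loci on each side, the 2 most alike and the 3 largest changes of the pathway list. One gene first drawn up for that list was taken out of it and its counts, and is not reported here. Members and lists were chosen with earlier results of these data known. Other genes named with values were chosen after these were seen.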

Additional observations from a re-analysis of the deposited data

How the results depend on the processing

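All 6 Ifit loci stayed higher in pretreated cells under each of 5 settings set out in advance and 3 added after seeing the data, and none was 2-fold lower. This was bound to hold, since none of these settings could turn a higher value into a lower one here. Only the size of a change, and the counts at a threshold, could move. The number at least 2-fold higher was 4, except 5 after centring on the median and 3 at a 4-fold threshold. XLOC_013045 passed 2-fold at 1.03 after centring on all loci and at 1.01 after centring on loci with a transcript ID, since centring adds a constant to every locus. XLOC_013459, at 1.54, did not reach 4-fold. The median change of the cluster ran from 2.13 to 2.29. Counts over all loci moved more: 465 higher and 1175 lower with a pseudocount of 0.1, 176 and 452 at a minimum mean FPKM of 5, and 99 and 143 at 4-fold, against 289 and 728. Loci with a transcript ID alone gave 222 higher and 391 lower, of 9227 compared. In that setting and at the minimum mean of 5 no change was altered. Their counts fell because fewer loci were compared than the 10228 of the main setting. Centring gave 423 higher and 527 lower. No paired analysis was possible because the groups hold a single library apiece, and no replicate could be left out. The absolute depth is unknown, and the variation between cultures cannot be told apart from an effect of pretreatment. The FPKM split among loci with shared sequence or a shared interval was not tested.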
